A study of Rattus norvegicus with 30 samples.

Results

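The piRNA pathway genes followed here were Piwil1, Piwil2, Tdrd1, Tdrd9, Tdrkh, Rnf17, Ddx4, Mov10l1, Mael and Asz1, 10 genes chosen by name and matched to the file by their Entrez Gene identifiers. Of these, 8 were among the 17322 genes of the file, and Tdrd9 and Mov10l1 were not analysed here. RNA was sequenced from uncultured testes of Wistar Han rats, from 8.5 days post partum (dpp) through 14.5 dpp, 24.5 dpp, 30.5 dpp and 36.5 dpp to the adult age of 53.5 dpp, and from explants of 8.5 dpp testes after organotypic culture. Cultures of 6 days (D6) were age-matched to 14.5 dpp, those of 16 days (D16) to 24.5 dpp, those of 22 days (D22) to 30.5 dpp and those of 28 days (D28) to 36.5 dpp. The labels give no genotype other than the strain and no treatment other than culture, and all explants were kept in the same medium with serum replacement, retinol and vitamin E. Each cultured library pooled explants of several males, and the necrotic centre of the explants was removed before RNA extraction, so that a cultured library is a mixture and covers only the living part of the tissue. Each group held 3 libraries, except 14.5 dpp with 2. The other 14.5 dpp library is labelled an outlier, and the study excluded it because its profile differed from those of the other 2. It was listed at 0 for every gene and was left out here. Values are FPKM, which are scaled to transcript length and to mapped reads. Levels of different genes are set side by side on that scale, and other differences between genes in mapping or annotation were not examined.

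PIWI-interacting RNAs (piRNAs) are small RNAs of the germline that guide PIWI proteins to transposon transcripts and, in meiotic spermatocytes and round spermatids, to other RNAs. Long precursor transcripts are cut and trimmed at the outer membrane of mitochondria and in the perinuclear nuage, where Tudor domain proteins hold the PIWI proteins together with helicases and scaffold proteins. In the rodent testis one set of piRNAs is made before meiosis and a second, far larger set from the pachytene stage on, when the transcription factor MYBL1 (A-MYB) drives both piRNA precursors and genes of the machinery.

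RefSeq promoter sequences (GRCr8 build, from 250 bases before to 50 bases after the annotated start, written on the strand of the gene) were found for 7 of the 10 genes. They are shown for 4 genes with a large rise between 14.5 and 24.5 dpp and for Tdrkh, whose rise was the smallest at that step, since the shared timing makes their start regions of interest. Capitals mark every match to 4 motifs searched on both strands: AACGG and AACTG, forms of the MYB core, CACGTG, the E-box, and CNCCTCAG, a motif ascribed to the meiotic initiator STRA8. No motif match overlapped another in these 5 windows. The windows lie at chr12:33606534-33606833 (minus strand) for Piwil1, chr1:265880775-265881074 (plus) for Tdrd1, chr2:46015902-46016201 (minus) for Ddx4, chr13:81029574-81029873 (minus) for Mael and chr2:184737997-184738296 (plus) for Tdrkh.
Piwil1: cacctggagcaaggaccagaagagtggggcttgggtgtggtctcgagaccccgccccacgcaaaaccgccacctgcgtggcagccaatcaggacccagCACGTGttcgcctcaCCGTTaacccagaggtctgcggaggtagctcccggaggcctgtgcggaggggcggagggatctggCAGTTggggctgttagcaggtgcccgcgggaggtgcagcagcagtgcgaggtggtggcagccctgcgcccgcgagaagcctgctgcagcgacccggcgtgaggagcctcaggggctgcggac
Tdrd1: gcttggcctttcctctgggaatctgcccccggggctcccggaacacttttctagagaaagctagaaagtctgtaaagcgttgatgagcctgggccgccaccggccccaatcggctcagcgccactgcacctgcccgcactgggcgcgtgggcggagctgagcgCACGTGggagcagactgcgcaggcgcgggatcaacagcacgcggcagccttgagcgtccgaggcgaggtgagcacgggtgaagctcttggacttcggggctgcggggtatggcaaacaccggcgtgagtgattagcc
Ddx4: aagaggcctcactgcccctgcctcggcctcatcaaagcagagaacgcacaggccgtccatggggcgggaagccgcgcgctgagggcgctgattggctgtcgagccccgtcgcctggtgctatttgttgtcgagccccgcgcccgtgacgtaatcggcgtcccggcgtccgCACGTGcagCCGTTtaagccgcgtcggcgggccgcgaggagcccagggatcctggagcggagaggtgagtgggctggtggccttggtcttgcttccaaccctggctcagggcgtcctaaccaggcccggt
Mael: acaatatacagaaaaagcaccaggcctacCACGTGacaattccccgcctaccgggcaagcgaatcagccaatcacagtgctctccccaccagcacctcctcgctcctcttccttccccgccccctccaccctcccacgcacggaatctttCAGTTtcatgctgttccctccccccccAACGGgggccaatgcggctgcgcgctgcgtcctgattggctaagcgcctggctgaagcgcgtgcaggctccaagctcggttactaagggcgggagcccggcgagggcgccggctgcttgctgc
Tdrkh: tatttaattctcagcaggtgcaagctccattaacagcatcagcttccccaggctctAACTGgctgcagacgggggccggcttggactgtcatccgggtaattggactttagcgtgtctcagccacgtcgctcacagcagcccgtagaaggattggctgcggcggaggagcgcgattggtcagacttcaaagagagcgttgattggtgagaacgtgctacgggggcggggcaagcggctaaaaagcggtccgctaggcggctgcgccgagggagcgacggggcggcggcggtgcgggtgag

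The E-box was present in the windows of 5 of the 7 genes (Piwil1, Tdrd1, Ddx4, Mael and Mov10l1) and in 6.42% of all 33469 RefSeq promoter windows. CACGTG itself contains the letters CG. The windows with an E-box held 18 to 32 CG pairs, and those of Tdrkh and Asz1 held 27 and 15. The shares over all windows were not matched for CG pairs or for expression. In Piwil1 it began 152 bases before the start, in Tdrd1 87, in Ddx4 80 and in Mael 221. AACGG was present in 4 of the 7 (17.3% of all windows), AACTG in 3 of the 7 (46.0%) and the STRA8 motif in 1, Asz1 (8.86%). Asz1 rose 4.62-fold from 14.5 to 24.5 dpp, beside 5.03-fold for Ddx4, and its window, not shown, held no E-box. Tdrkh held only AACTG, a motif found in almost every second promoter. These matches are descriptions of the letters in the windows and no binding was measured.

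The cell content of the libraries changed with age and culture, which bears on every level given here: in bulk tissue, fewer cells of a type and less RNA per cell cannot be told apart. The summed FPKM of 6 markers of pachytene and later spermatocytes (Ccna1, Hspa2, Ldhc, Pgk2, Ybx2 and Adam3) was 15.9 to 18.5 at 8.5 dpp, 29.2 to 37.1 at 14.5 dpp, 1456 to 2340 at 24.5 dpp and 3858 to 4092 at 36.5 dpp, and 18.1 to 29.2 in the 12 cultured libraries. For 7 early spermatocyte markers (Sycp1, Sycp2, Sycp3, Dmc1, Spo11, Syce1 and Hormad1) the sum was 320 to 378 at 36.5 dpp and 24.5 to 42.7 at D28. For 6 Sertoli cell markers (Sox9, Wt1, Amh, Cldn11, Rhox5 and Clu) the sum was 455 to 594 at 36.5 dpp and 3426 to 4105 at D28. Sertoli cells are the somatic cells of the tubule, and the study counted similar numbers of them per tubule after the longest culture and in age-matched testes. With germ cells marked by DDX4 protein, it counted fewer germ cells per tubule in the cultured tissue and saw tubules with Sertoli cells only. The study reported a ratio of germ cells to Sertoli cells below that of age-matched testes and similar to that of its immature testes. Not all germ cell lists were lower in culture: the sum of 5 spermatogonial markers was 38.7 to 44.7 at 36.5 dpp and 191 to 236 at D28. That of 3 genes listed as general germ cell markers (Dazl, Tex101 and Mageb16) was 160.4 to 175 at 36.5 dpp and 109 to 166 at D28. These ranges overlapped, with a lower median at D28 (140 against 169). The sum is no measure of total germ cells. It was highest in vivo at 24.5 dpp (603 to 909) and was 110 to 171 at 53.5 dpp, where the sum of 6 spermatid markers was highest (15032 to 22818). In the cultured libraries Prm1, a protamine of late spermatids, was at 0 throughout, and Ldhc was at 0 in every library of D16 and D22. The 2 libraries of 14.5 dpp stood apart from each other, with early spermatocyte sums of 17.2 in replicate 1 and 87.8 in replicate 2. The part of cell content in the results below was not tested. Read counts were not used here; the relative depth estimated from the steps of the lowest values ranged from 0.815 to 1.49 over the 29 libraries, relative to the median library.

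All 8 genes rose between 8.5 and 14.5 dpp and again between 14.5 and 24.5 dpp, the interval in which the first wave of spermatocytes reaches the pachytene stage. The gene with the widest range was Piwil1 (MIWI), the PIWI protein of pachytene spermatocytes and round spermatids, which was listed at 0.0794, 0.158 and 0.0658 FPKM at 8.5 dpp, at 0.551 and 1.38 at 14.5 dpp and at 240, 291 and 156 at 24.5 dpp. Its mean level was 238-fold higher at 24.5 dpp than at 14.5 dpp (log2 fold change of FPKM + 1 6.86 ± 0.31 SE, limma adjusted p = 0.00021). No library of one age overlapped those of the other. Here and below, the share of all genes tested without such overlap was not determined. Piwil2 (MILI), the PIWI protein that is already made in fetal and early postnatal germ cells, started higher, at 4.48 to 5.21 FPKM at 8.5 dpp. It was at 9.31 and 11.4 at 14.5 dpp and at 155, 169 and 126 at 24.5 dpp, a rise of 14.5-fold (log2 fold change 3.73 ± 0.18, adjusted p = 0.00021). Thus the 2 PIWI genes, 1 nearly silent and 1 expressed at 8.5 dpp, came to levels of the same order at 24.5 dpp.

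Among the Tudor domain genes, Tdrd1, which binds PIWIL2 in the nuage between mitochondria, was at 3.39, 3.64 and 3.82 FPKM at 8.5 dpp, at 12.0 and 14.7 at 14.5 dpp and at 164, 167 and 114 at 24.5 dpp. Tdrkh (TDRD2), which anchors PIWI proteins at mitochondria during the trimming of piRNAs, was at 3.67, 3.00 and 3.51 at 8.5 dpp, at 8.40 and 16.8 at 14.5 dpp and at 43.9, 36.2 and 37.5 at 24.5 dpp. Rnf17 (TDRD4), needed in spermatids, was the lowest of the 8 at 24.5 dpp, with 12.0, 12.4 and 9.71 FPKM after 0.169 to 0.233 at 8.5 dpp. None of these 3 genes had overlapping libraries at the 3 ages, with the share of all genes not determined. The rise from 14.5 to 24.5 dpp was 11.1-fold for Tdrd1 (log2 fold change 3.37 ± 0.22, limma adjusted p = 0.000321), 3.11-fold for Tdrkh (1.63 ± 0.28, adjusted p = 0.00553) and 4.29-fold for Rnf17 (1.79 ± 0.23, adjusted p = 0.00249). Ddx4, the germ cell helicase VASA, went from 3.55 to 4.01 FPKM at 8.5 dpp to 60.8 to 77.0 at 24.5 dpp. Mael (maelstrom), a nuage protein of transposon silencing, went from 7.45 to 8.14 to 124 to 170 over the same ages. Asz1 (GASZ), a scaffold on the mitochondrial membrane, went from 1.63 to 2.56 to 16.1 to 18.5. Each of the 3 was called at both steps, with 14.5 dpp libraries of 10.8 and 16.2 FPKM for Ddx4, 14.4 and 28.5 for Mael and 2.95 and 4.70 for Asz1.

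A gene was called where the limma adjusted p was at most 0.05 and the group medians differed at least 2-fold. From 8.5 to 14.5 dpp all 8 genes were called higher, against 8.83% of all genes tested, and from 14.5 to 24.5 dpp again all 8, against 14.6%. The median log2 fold change of the 8 was 1.43 and 2.56, and that of all genes tested 0.07 and -0.18. The first step was less firm: 5 of the 8 were called without any single library of 8.5 dpp or without replicate 2 of 14.5 dpp, and 8 without replicate 1 of 14.5 dpp. With libraries centred on their medians Piwil2 (0.82) and Asz1 (0.56) were not called at this step, and the genes called in the whole table went from 994 higher and 775 lower to 761 higher and 1026 lower.

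In FPKM as deposited, the group means followed 2 patterns after 24.5 dpp. Piwil1, Piwil2, Tdrd1, Tdrkh, Rnf17 and Asz1 had their highest mean at 24.5 dpp and stood at 17.7% (Tdrkh) to 37.1% (Piwil1) of it at 53.5 dpp. Mael had its highest mean at 36.5 dpp and Ddx4 at 30.5 dpp, and they stood at 97.9% and 74.8% of these at 53.5 dpp. Peak ages and percentages were not determined after rescaling. The median gene tested was at -0.39, -0.22 and -0.30 on the log2 scale over the 3 steps after 24.5 dpp. From 24.5 to 30.5 dpp Piwil1 (-0.16, limma adjusted p = 0.561) and Tdrd1 (-0.35, adjusted p = 0.153) had overlapping libraries, so their peak age is uncertain. In FPKM, Mael was at 223, 354 and 266 at 30.5 dpp, at 270, 323 and 342 at 36.5 dpp and at 281, 303 and 332 at 53.5 dpp, and these 3 ages overlapped. Piwil1 was at 223, 185 and 190 at 30.5 dpp, at 135, 128 and 114 at 36.5 dpp and at 81.4, 95.8 and 77.7 at 53.5 dpp, where neighbouring ages after 30.5 dpp did not overlap. Tdrkh reached 6.76 to 7.25 FPKM at 53.5 dpp, below both of its 14.5 dpp libraries.

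**Figure D1:**
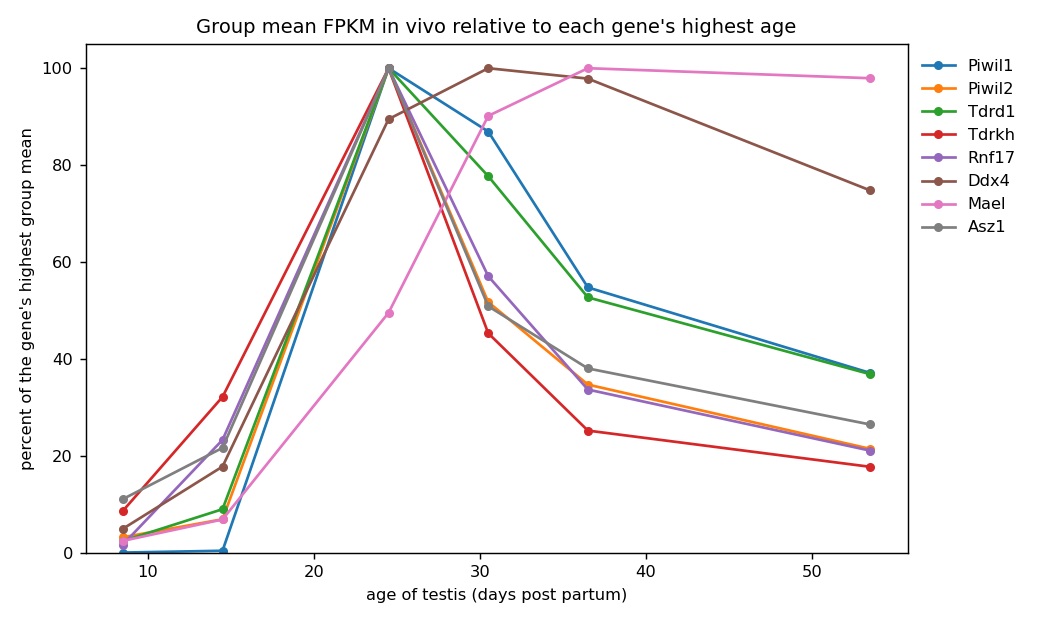
Mean FPKM of each of the 8 genes at the 6 in vivo ages (x axis, days post partum) as a percentage of the gene's own highest in vivo group mean (y axis), 1 line per gene. FPKM are as deposited, without rescaling. At 53.5 dpp 6 lines lie between 17.7% and 37.1%, Ddx4 at 74.8% and Mael at 97.9%.

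Few of these later steps passed both criteria. From 24.5 to 30.5 dpp Piwil2 alone was called lower (98.3, 61.9 and 72.6 FPKM at 30.5 dpp, log2 fold change -0.96 ± 0.20, adjusted p = 0.00456), against 25.5% of all genes tested. This count was 0 without replicate 2 of 30.5 dpp, 2 without replicate 3 of 24.5 dpp, and 3 without replicate 1 or replicate 3 of 30.5 dpp, and Piwil2 itself was not called without replicate 2 of 24.5 dpp or without replicate 2 or 3 of 30.5 dpp. It was also not called with libraries centred on their medians (-0.47 ± 0.19, adjusted p = 0.0662), where Mael was called higher instead (1.33 ± 0.25, adjusted p = 0.00468). In the whole table this centring changed the genes called from 1553 higher and 2926 lower to 2268 higher and 653 lower, and quantile normalization to 1693 and 1876; the median gene tested was at -0.39 on the log2 scale as deposited. Tdrkh and Asz1 differed by a similar amount (-1.15 ± 0.26, adjusted p = 0.006, and -0.91 ± 0.14, adjusted p = 0.0014) but their medians differed less than 2-fold. None of the 8 was called from 30.5 to 36.5 dpp (limma; 6 at an unadjusted p under 0.05, and 1.2% of all genes called lower) or from 36.5 to 53.5 dpp (limma; 7 at an unadjusted p under 0.05, and 4.98% of all genes called lower). Without replicate 2 of 30.5 dpp, 1 gene was called from 30.5 to 36.5 dpp. In the last step all 8 log2 fold changes were below 0, between -0.67 for Piwil2 and -0.03 for Mael, with a median of -0.48 beside -0.30 for all genes tested, and the value of Ddx4 (-0.38) became 0.0126 when libraries were centred on their medians. That centring changed the genes called in the whole table from 711 higher and 135 lower to 944 and 35 from 30.5 to 36.5 dpp, and from 318 higher and 549 lower to 652 and 90 from 36.5 to 53.5 dpp, where quantile normalization gave 433 and 94.

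In culture the 8 genes stayed near the levels of 8.5 to 14.5 dpp testes, and from D16 to D28 the gap to age-matched in vivo controls was widest for Piwil1 and smallest for Tdrkh. Piwil1 was at 0.335, 0.286 and 0.281 FPKM at D6, 0.256, 0.187 and 0.400 at D16, 0.589, 0.592 and 0.558 at D22, and 0.820, 0.803 and 0.830 at D28. All 12 values lay above the 8.5 dpp libraries and below the higher 14.5 dpp library (1.38). Against age-matched testes its mean was 815-fold lower at D16, 343-fold lower at D22 and 153-fold lower at D28, with log2 fold changes of -7.45 ± 0.22, -6.98 ± 0.10 and -6.12 ± 0.10 (adjusted p = 3.7e-06, 1.77e-08 and 7.86e-09). The log2 values, taken after adding 1 FPKM, understate such a ratio when one level is far under 1 FPKM. The ratio at D16 itself rests on cultured values under the filter of 0.5 FPKM, close to the floor, and its size is uncertain.

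**Figure D2:**
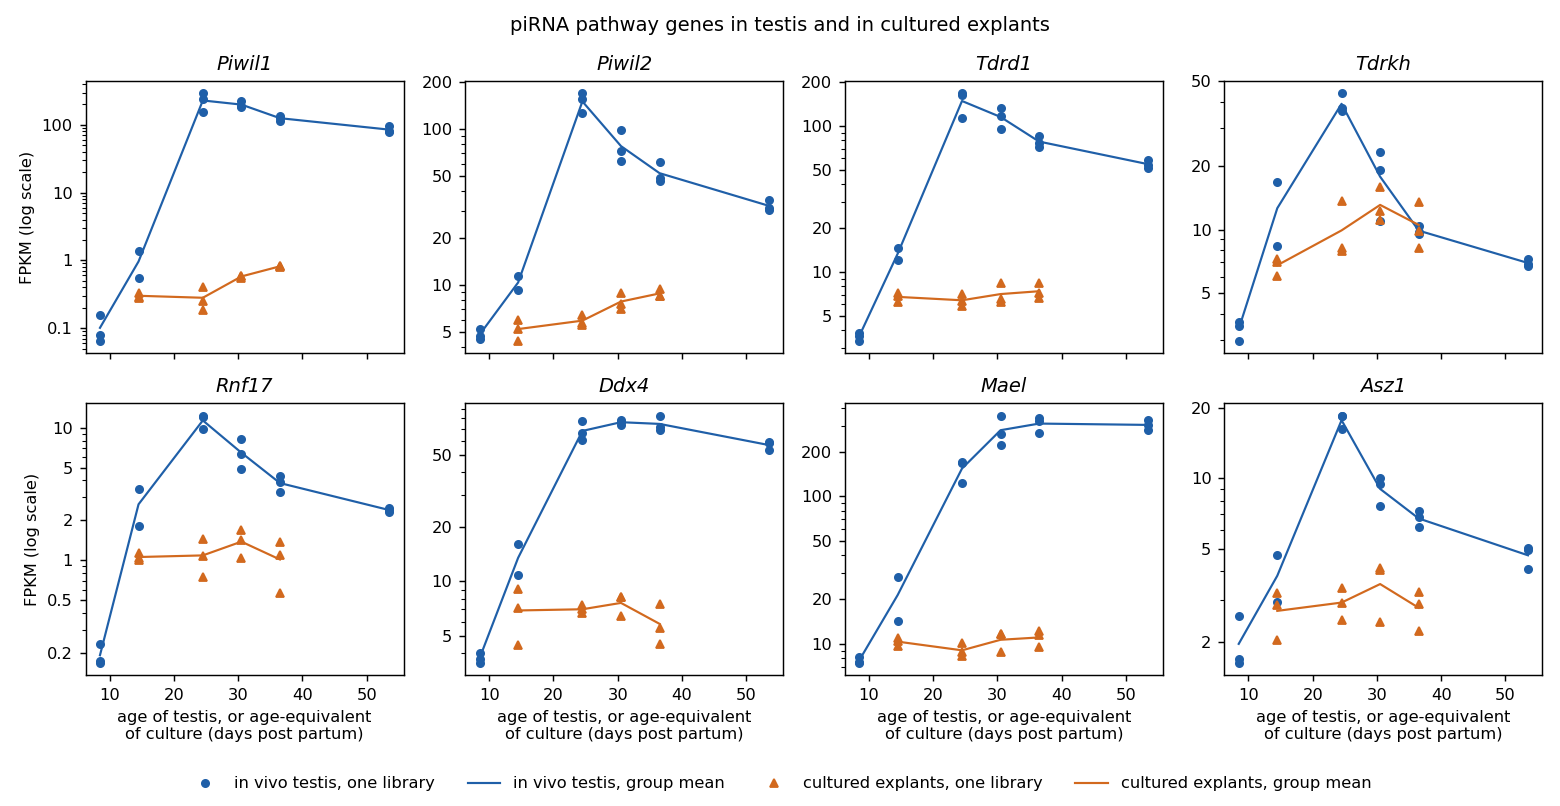
FPKM (log axis) of the 8 genes, 1 panel per gene, against the age of the testis or the age at which the culture ended (days post partum). Blue circles are in vivo libraries, orange triangles cultured libraries and lines connect group means. Cultured libraries of Piwil1 stay between 0.187 and 0.830 FPKM while the testes rise to 156 to 291 FPKM at 24.5 dpp, and those of Tdrkh overlap the testes at the last 2 shared ages.

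Piwil2 was at 5.25, 6.00 and 4.41 FPKM at D6, 5.56, 5.72 and 6.46 at D16, 8.94, 7.01 and 7.57 at D22 and 8.52, 8.50 and 9.48 at D28. Its D28 level was 5.89-fold lower than at 36.5 dpp (61.4, 48.4 and 46.4 FPKM, log2 fold change -2.42 ± 0.13, adjusted p = 1.72e-06). The largest gaps after Piwil1 at this age were those of Mael and Ddx4, the 2 genes that stay high in the adult testis. Mael was at 11.5, 9.49 and 12.1 FPKM at D28, 28.2-fold below 36.5 dpp (log2 fold change -4.70 ± 0.14, adjusted p = 8.3e-08), and Ddx4 at 4.52, 7.46 and 5.49, 12.7-fold below 68.7, 71.4 and 82.6 (-3.48 ± 0.17, adjusted p = 1.06e-06). Tdrd1 was at 6.62, 7.16 and 8.34 FPKM at D28, 10.6-fold below 85.5, 76.6 and 72.3 (-3.24 ± 0.12, adjusted p = 2.72e-07). Rnf17 and Asz1 had smaller gaps, 3.77-fold (0.562, 1.37 and 1.11 against 3.26, 4.33 and 3.88 FPKM, adjusted p = 0.000271) and 2.41-fold (2.22, 3.27 and 2.88 against 6.80, 6.16 and 7.21 FPKM, adjusted p = 0.000178). None of these genes had a D28 library within the range of 36.5 dpp. The share of all genes tested without overlap between groups was not determined for any comparison.

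Tdrkh was the exception. It was at 6.06, 7.28 and 7.01 FPKM at D6, 8.18, 7.92 and 13.6 at D16, 11.1, 12.2 and 15.8 at D22 and 13.5, 9.85 and 8.22 at D28. At D16 this was 3.96-fold below 24.5 dpp (log2 fold change -1.92 ± 0.21, adjusted p = 0.000199). At D22 the libraries overlapped those of 30.5 dpp (23.2, 11.0 and 19.0 FPKM, -0.37, 95% confidence interval -1.004 to 0.267, adjusted p = 0.231), and at D28 those of 36.5 dpp (10.4, 9.50 and 9.73 FPKM, 0.06, interval -0.34 to 0.46, adjusted p = 0.765). Scaling matters here, because the median gene tested was 0.51 higher on the log2 scale at D22 than at 30.5 dpp and 0.64 higher at D28 than at 36.5 dpp. With libraries centred on their medians, Tdrkh was lower by -0.80 (adjusted p = 0.0181) at D22, which passed both criteria, and by -0.57 (adjusted p = 0.0163) at D28, which did not reach the fold required. The other 7 genes were called lower at D28 under both rescalings tried. In the whole table median centring changed the genes called from 5104 higher and 2773 lower to 3938 and 3499 at D22, and from 5701 higher and 2884 lower to 4168 and 3915 at D28.

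In all, 8 of 8 genes were called lower at D16 (against 18.3% of all genes tested), 7 of 8 at D22 (22.9%) and 7 of 8 at D28 (23.6%). The median log2 fold change of the 8 was -3.52, -3.15 and -2.83, and that of all genes tested 0.12, 0.51 and 0.64. The D16, D22 and D28 calls were the same in number without any single library. At D6, against 14.5 dpp, none of the 8 was called (limma; 7 at an unadjusted p under 0.05, 2 at an adjusted p of at most 0.05, and 2.37% of all genes called lower), although all 8 log2 fold changes were below 0 with a median of -0.83. Without replicate 1 of 14.5 dpp, the library with the lower levels of meiotic markers, 6 of the 8 were called, without replicate 2 none, and without replicate 2 of D6 1. In 1 fit of all 10 groups the count was 3.

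**Figure D3:**
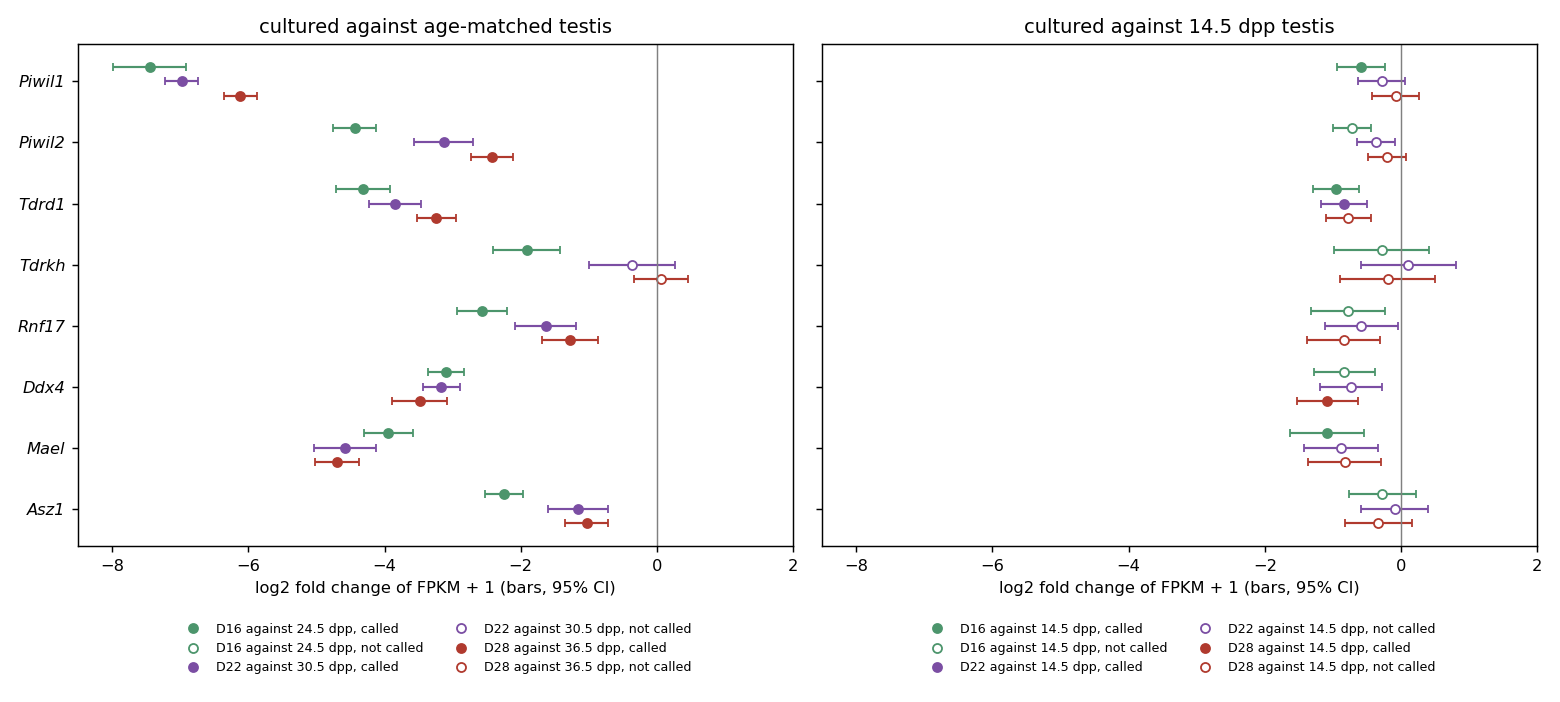
Log2 fold change of FPKM + 1 (x axis) of the 8 genes for D16, D22 and D28 cultured tissues against age-matched testes (left) and against 14.5 dpp testes (right). Points are estimates and bars 95% confidence intervals, and filled points were called. On the left Piwil1 lies between -7.45 and -6.12 and Tdrkh at D28 at 0.06, and on the right the estimates lie between -1.09 and 0.11.

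The 14.5 dpp testis served as the immature control for the 3 later culture times, which were tested together (F test of limma over the 4 groups). Against it 3 genes were called lower at D16 (Piwil1, Tdrd1 and Mael; 5.35% of all genes tested), 1 at D22 (Tdrd1; 5.51%) and 1 at D28 (Ddx4; 6%). The log2 fold changes of the called genes were small beside those against age-matched testes: -0.59 ± 0.16 for Piwil1, -0.95 ± 0.15 for Tdrd1 and -1.09 ± 0.24 for Mael at D16, -0.84 ± 0.15 for Tdrd1 at D22 and -1.08 ± 0.20 for Ddx4 at D28. These calls rested on the 2 libraries of 14.5 dpp. Without its replicate 1 the counts were 6, 4 and 4, and without its replicate 2 they were 1, 0 and 0. The value of Ddx4 at D28 was -1.35 without the former and -0.82 without the latter. The D16 count was also 1 without any single D16 library, the D22 count 2 without replicate 1 and 0 without replicate 3 of D22, and the D28 count 2 without replicate 3 of D28. For Piwil1 and Piwil2 the difference from 14.5 dpp at D28 was not called, with intervals of -0.43 to 0.27 and -0.48 to 0.07.

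Compared with the tissue from which the explants were taken (8.5 dpp), D6 explants had 1 of the 7 genes that passed the filter on low values called higher (9.89% of all genes tested). This was Rnf17, at 1.13, 1.01 and 1.04 FPKM against 0.175, 0.169 and 0.233 (log2 fold change 0.79 ± 0.08, adjusted p = 0.000252). Tdrkh (0.83 ± 0.10), Tdrd1 (0.75 ± 0.09), Ddx4 (0.69 ± 0.21) and Mael (0.38 ± 0.09) also had adjusted p-values of at most 0.05 but medians less than 2-fold apart, and Piwil1, under 0.5 FPKM in both groups, was not tested. The count was 2 without replicate 1 or 3 of either group. Quantile normalization changed the genes called in the whole table from 1109 higher and 717 lower to 931 and 906. Within culture, none of 7 genes was called from D6 to D16 (limma; 0 at an unadjusted p under 0.05, with 1.45% of all genes called higher and 1.85% lower) and none of 8 from D16 to D28 (limma; 2 at an unadjusted p under 0.05, with 0.125% higher and 0.0895% lower; 14 and 10 genes, and 22 and 10 with median centring). Those 2 were Piwil1 and Piwil2, each higher by 0.51 ± 0.10 with an adjusted p of 0.101.

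The change from D6 to D28 was set against the change from 14.5 to 36.5 dpp in 1 model. For 5 of the 8 genes the change in culture was called smaller (19.2% of all genes tested): Piwil1 by a difference of -5.55 ± 0.21 on the log2 scale, Mael by -3.79 ± 0.31, Ddx4 by -2.59 ± 0.36, Tdrd1 by -2.36 ± 0.18 and Piwil2 by -1.55 ± 0.21. For Asz1 (-0.66 ± 0.26, adjusted p = 0.0377) the difference stayed under the size of 1 that was required, for Rnf17 it was -0.49 ± 0.29 (adjusted p = 0.144), and for Tdrkh it was 0.79 ± 0.34 (adjusted p = 0.0538). The last value rested on the libraries of 14.5 dpp: without replicate 1 it was 1.25 ± 0.27 (adjusted p = 0.00241), a call in the opposite direction to the other 5, and without replicate 2 it was 0.33 (adjusted p = 0.286). Asz1 was at -0.40 (adjusted p = 0.187) and -0.93 (adjusted p = 0.0094) without the same libraries. The median of all genes tested was 0.63 in this comparison. With libraries centred on their medians 7 of the 8 were called, and with quantile normalization 6, while Tdrkh was at 0.11 and 0.36. The genes called in the whole table were 4794 higher and 2395 lower as deposited, and 3071 higher and 3331 lower with median centring.

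Ratios within a library do not depend on its scaling. Piwil1 per Piwil2 was 0.0147 to 0.0304 at 8.5 dpp, 0.0592 and 0.120 at 14.5 dpp, 1.24 to 1.72 at 24.5 dpp and 2.20 to 3.08 from 30.5 to 53.5 dpp. In culture it was 0.0477 to 0.0637 at D6, 0.0327 to 0.0619 at D16, 0.0660 to 0.0845 at D22 and 0.0876 to 0.0962 at D28. Thus the ratio at D28 was above that of every other cultured library and 26.1-fold below 36.5 dpp on average (geometric means). Tdrkh per Piwil2 was 0.575 to 0.784 at 8.5 dpp, higher at 14.5 dpp (0.903 and 1.47) and lower again at 36.5 dpp (0.170 to 0.210). In culture it was 0.867 to 1.58 at D28. For the difference between D28 and 36.5 dpp the exact two-sided permutation p was 0.1 for either ratio, the smallest that 3 against 3 libraries allow.

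**Figure D4:**
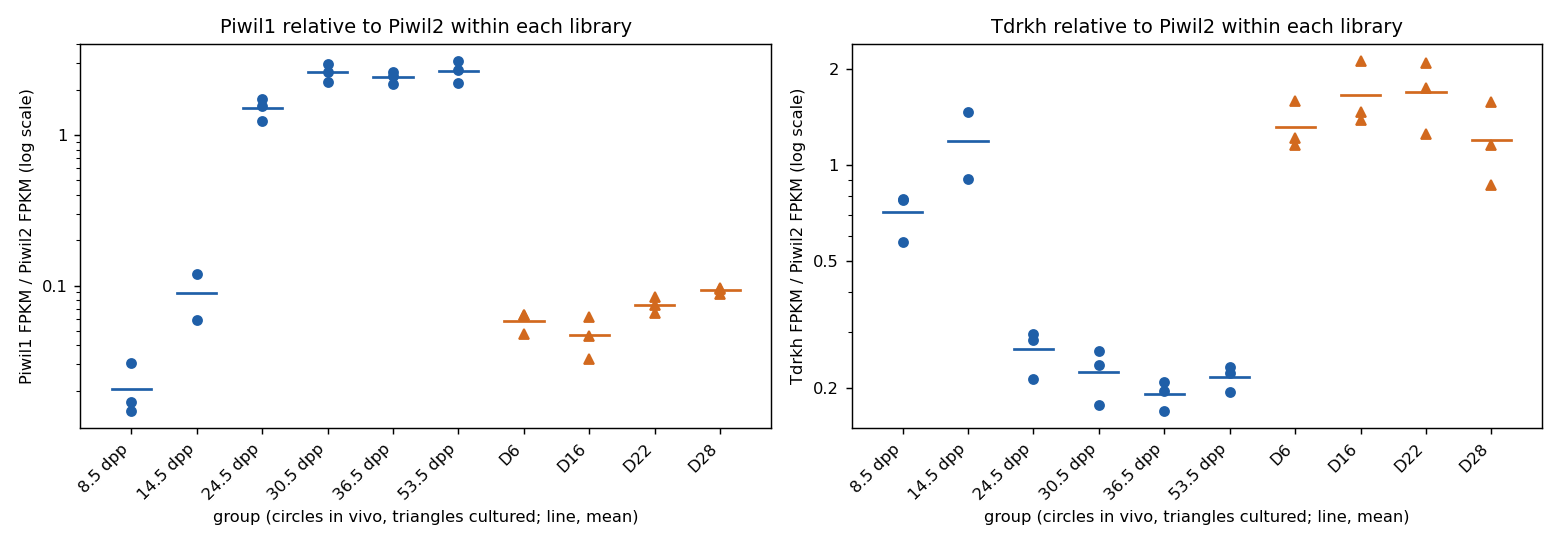
Ratio of Piwil1 to Piwil2 FPKM (left) and of Tdrkh to Piwil2 FPKM (right) in each library (log axes), by group. Circles are in vivo and triangles cultured libraries, and lines mark group means. All cultured libraries lie under 0.1 on the left, where testes from 24.5 dpp on lie above 1.2, and above 0.8 on the right, where those testes lie under 0.3.

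Of 26 other genes of the pathway, 18 were in the file and 12 or 13 passed the filter in each comparison. From 14.5 to 24.5 dpp 9 of 13 rose and 2 fell (14.6% of all genes tested were called higher and 21.1% lower). The regulator Mybl1 rose from 4.46 and 5.17 FPKM to 28.5, 31.9 and 25.1 (log2 fold change 2.34 ± 0.16, adjusted p = 0.000358), and the largest rise was that of Tdrd6, a Tudor protein of the chromatoid body, from 0.346 and 0.461 FPKM to 100.4, 124 and 62.9 (6.06 ± 0.29, adjusted p = 0.00021). The 2 that fell were Piwil4, the nuclear PIWI protein of fetal and early postnatal germ cells (3.69 and 3.80 to 1.12, 1.38 and 1.62 FPKM), and Mov10, the broadly expressed relative of Mov10l1 (33.7 and 28.9 to 9.26, 9.93 and 15.5 FPKM).

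Against age-matched testes 10 of 13 of these genes were called lower and 1 higher at D16. Of all genes tested 18.3% were called lower and 25.3% higher. The counts were 9 lower and 2 higher at D22 (22.9% and 42.1% of all genes), and 7 lower and 3 higher at D28 (23.6% and 46.7%). At D28 Mybl1 was at 2.48, 4.49 and 3.25 FPKM against 19.0, 19.6 and 22.2 at 36.5 dpp (log2 fold change -2.29 ± 0.17, adjusted p = 9.62e-06). Tdrd6 was at 0.558, 0.125 and 0.277 FPKM against 405, 409 and 481 (-8.37 ± 0.15, adjusted p = 8.92e-09), a gap larger than that of Piwil1. Tdrd7, another chromatoid body protein, was at 16.4, 14.9 and 14.8 against 165, 185 and 184 FPKM (-3.45 ± 0.10). Henmt1, which methylates the piRNA end, was called lower at all 3 times (at D28 -1.74 ± 0.16), whereas Pnldc1, the trimming nuclease, and Tdrd5 were called lower at D16 but not at D28 (-0.26 ± 0.17, adjusted p = 0.183, and -0.83 ± 0.18, adjusted p = 0.00331, under the fold required). The 3 genes that were higher at D28 were Mov10 (41.1, 38.3 and 41.1 against 2.57, 2.43 and 2.15 FPKM), Piwil4 (2.37, 2.06 and 2.39 against 0.416, 0.201 and 0.198) and Tex15, a factor of transposon methylation (22.9, 36.1 and 32.1 against 15.4, 13.6 and 18.0). Against 14.5 dpp, Tex15 was the only gene of the list called at D28 (-1.27 ± 0.20, adjusted p = 0.00115), from 61.7 and 87.2 FPKM. Gtsf1 was listed at 0 in every library, which can be a failed estimate, Morc1 had at most 0.124 FPKM, and Dnmt3l reached 1.14 to 1.74 FPKM at 53.5 dpp after values of at most 0.269 elsewhere. Pld6 and Tdrd12 were not analysed here.

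**Figure D5:**
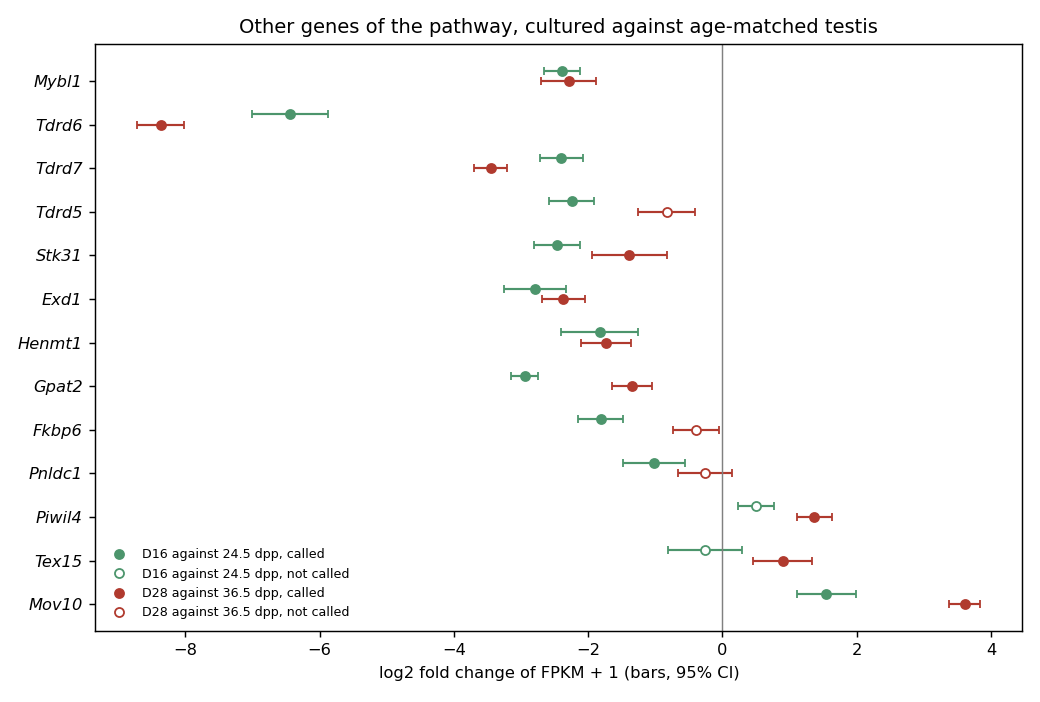
Log2 fold change of FPKM + 1 (x axis) of 13 other pathway genes for D16 against 24.5 dpp and D28 against 36.5 dpp. Points are estimates, bars 95% confidence intervals and filled points were called. Tdrd6 lies at -8.37 and Mov10 at 3.61 for D28.

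To describe which genes had the most similar course, the log2 group means over the 10 groups were correlated with each of 12762 genes that passed the filter; all points share libraries, and r is a description across groups. Piwil1 was closest to Prss44, to Cyct, the testis cytochrome c, and to Psma8, the proteasome subunit of spermatocytes (Pearson r 0.999 for each), and 667 genes had r over 0.95. Mael had 1006 such genes, led by Dcaf6, Otog and Hdgfl1 (r 0.998 to 0.999), Ddx4 623, led by Phtf1, Naa11 and Alms1 (0.994 to 0.996), Tdrd1 349, led by Ranbp17, Sgsm1 and Ift88 (0.994 to 0.997), and Piwil2 202, led by Tecta, Dync2h1 and the meiotic gene Hormad2 (0.991 to 0.994). Rnf17 had 64, led by Stk31, a gene of the pathway list, Urb2 and Sepsecs (0.991 to 0.993), and Asz1 83, led by Iqcb1, Urb2 and the meiotic helicase gene Hfm1 (0.986 to 0.991). Tdrkh, with 23, had the fewest, and its closest genes were Fgd2, Cul9 and Trpc1 (0.976 to 0.986).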

How the data were processed

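Polyadenylated RNA of 30 libraries was sequenced as 50 base single reads from stranded libraries. Per the labels and the study's methods, the authors aligned reads with STAR 2.5.2a to rn6 and quantified RefSeq transcripts with StringTie. They deposited 1 FPKM value per gene and library, scaled to transcript length and mapped reads. No value was rescaled for the main results, and median centring and quantile normalization were used only as alternatives, where named. Genes were named through their Entrez identifiers (17172 of 17322 found in a RefSeq table).

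FPKM were transformed to log2(FPKM + 1), and genes with a group median of at least 0.5 FPKM in a compared group were tested with limma 3.58.1 (R 4.3.3), Benjamini-Hochberg adjusted over all genes tested. As in the study's methods, a call required group medians at least 2-fold apart and an adjusted p of 0.05 or less. D16, D22 and D28 were compared with 14.5 dpp by an F test in 1 fit of 4 groups, other pairs each in a fit of their own, and for the difference between changes a size of 1 on the log2 scale replaced the ratio. The genes in the F comparisons are printed with the moderated test of each contrast. Errors are standard errors of limma. The fits were also run on simulated data with independent normal noise and no shift of scale between groups. Such data cannot show how scaling affects the calls. Ratios, sums, motif counts and figures were made with Python 3.11.15, numpy 2.4.6, pandas 2.3.3 and matplotlib 3.10.9.

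Groups follow the labels. In vivo libraries are from different testes. Whether cultured libraries with 1 number share males is not given in the sources used here. Named were the 10 genes, a pathway list of 26 genes of which 12 were to be named always and others if called at D28 against 14.5 dpp, and the 3 genes most correlated with each of the 10. Fkbp6, Gpat2, Exd1, Stk31 and Mov10 in the text or figures were chosen after their values were seen. The genes and lists were chosen with earlier results of these data known. The alternatives were another pseudocount (0.1), no filter, other scalings, 1 fit of all groups, the replicate block, another prior variance, no fold criterion and each library left out.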

Additional observations from a re-analysis of the deposited data

Results flagged for a closer look

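For 6 genes the change from D6 to D28 in culture differed from the change from 14.5 to 36.5 dpp in vivo by the test of that difference itself (adjusted p at most 0.05 in limma). The difference, culture minus testis on the log2 scale, was -5.55 for Piwil1, -1.55 for Piwil2, -3.79 for Mael, -2.36 for Tdrd1, -2.59 for Ddx4 and -0.66 for Asz1. The first 5 also passed the size required for a call. Asz1 did not, and its value was -0.40 (adjusted p = 0.187) without replicate 1 of 14.5 dpp. Markers of pachytene and later spermatocytes moved with these differences, from a summed 29.2 to 37.1 FPKM at 14.5 dpp to 3858 to 4092 at 36.5 dpp, but from 21.2 to 23.4 at D6 to 18.9 to 29.2 at D28, and their part was not tested.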

How the results depend on the processing

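Of 103 fold changes of single genes that were followed through the alternatives, 50 were called, and none of these 50 changed sign under any setting or without any library. A call required a large difference, so a kept sign was likely beforehand. Over the other settings with all libraries, the call was lost in 18 fits of these fold changes and kept in 387. Some calls were also lost with 1 library left out. The calls against age-matched testes at D16, D22 and D28, those from 14.5 to 24.5 dpp, the absence of calls within culture and the differences between changes stayed within 1.5 times under every setting. The count did not always stand for the same genes: with median centring Mael was called higher at 30.5 against 24.5 dpp in place of Piwil2 lower, and without replicate 1 of 14.5 dpp Tdrkh was called in the difference between changes (1.25), opposite in direction to the other 5. Other counts of called genes moved. Without the filter on low values the count was 4 at 14.5 against 8.5 dpp, 1 at D16 against 14.5 dpp and 2 at D6 against 8.5 dpp. Without the fold criterion it was 5 at 30.5 against 24.5 dpp, 3 at 36.5 against 30.5 dpp, 7 at 53.5 against 36.5 dpp, 2 at D6 against 14.5 dpp, 5 at D16, 5 at D22 and 5 at D28 against 14.5 dpp, and 5 at D6 against 8.5 dpp. In 1 fit of all 10 groups it was 3 at D6 and 2 at D28 against 14.5 dpp, and with the moderated test of each contrast it was 2 at D28. Quantile normalization gave 1 at D6 and 0 at D22 against 14.5 dpp, and median centring 0 at D22.

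Leaving out 1 library at a time gave 5 to 8 calls at 14.5 against 8.5 dpp, 0 to 3 at 30.5 against 24.5 dpp, 0 to 1 at 36.5 against 30.5 dpp, 0 to 6 at D6, 1 to 6 at D16, 0 to 4 at D22 and 0 to 4 at D28 against 14.5 dpp, and 1 to 2 at D6 against 8.5 dpp. Where this left 1 library of 14.5 dpp, it was assumed to vary like the other groups.

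Values that changed sign were all uncalled. Median centring gave 0.0126 for Ddx4 at 53.5 against 36.5 dpp and -0.57 for Tdrkh at D28 against 36.5 dpp, and quantile normalization -0.36 for that value, which ran from -0.12 to 0.20 with 1 library left out. Against 14.5 dpp, leaving out 1 library gave -0.75 to 0.18 for Tdrkh at D16, -0.35 to 0.57 at D22 and -0.66 to 0.27 at D28, -0.59 to 0.0259 for Piwil1 at D22 and -0.39 to 0.23 at D28, and -0.36 to 0.17 for Asz1 at D22.

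With the replicate number as a block, 1 gene was called at D16 against 14.5 dpp in place of 3. Same-numbered libraries did not deviate together (correlations of deviations from the group means between -0.13 and 0.10 over the pairs), so the numbers were not taken as pairs.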
